A study of Physcomitrium patens with 8 samples.

Results

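The transcripts described here were more abundant in the atg5 line than in wild type (WT) of the moss Physcomitrium patens in all 3 treatments that came before rehydration. They are 178 of 38181 gene probes on the arrays and stand for 139 of 32103 loci, where a locus is all models of 1 gene. A probe was a member if both dyes were well above background on all 6 Hydration, ABA and Dehydration arrays and if its mean log2 ratio of atg5 over WT was at least 1 in each of these treatments. The background condition alone was met by 10983 probes, of which the 178 members were 1.62%. The ratios on these 6 arrays chose the members, so they are given as a description, with no test. The ratios on the Rehydration arrays took no part in the choice, although the 5475 probes on which every array was centred had to be well above background there too.

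Each of the 8 Agilent arrays held WT and atg5 RNA from protonemal colonies of the same treatment, with 2 arrays per treatment that the labels call biological replicates. WT carried Cy3 and atg5 carried Cy5 in replicate 1, and the dyes were exchanged in replicate 2. Hydration colonies had grown for 7 days at 25 °C in continuous light on BCD medium with ammonium tartrate and glucose, and ABA colonies were then kept for 24 h on medium with 50 µM abscisic acid. Dehydration colonies were dried for 24 h over silica gel, and Rehydration colonies were dried and then kept for 24 h on fresh medium. Whether colonies were given abscisic acid before they were dried is not stated. The mutant is 1 knockout line of autophagy related gene 5, and what the missing ATG5 does cannot be told apart from what else sets that line off from WT.

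Autophagy encloses cell material in a vesicle, the autophagosome, and delivers it to the vacuole for breakdown. ATG5 belongs to the protein machinery that attaches ATG8 to the growing membrane, and plants without it cannot complete the process. Abscisic acid is the plant hormone of water deficit, and moss protonemata, the filaments that grow from a spore, become more tolerant of drying when they receive it.

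The arrays name genes only by identifiers such as Pp1s33_372V6.1, in which the numbers stand for a scaffold, a gene and a model version. None of these identifiers (0) occurred in the reference table of 27567 genes, so no function is given for any member. Between 37.1 and 53.5% of gene spots were well above background in each channel before rehydration, and between 19.3 and 30.6% in Rehydration. No gene spot (0) was saturated. Because whole colonies were extracted, fewer cells of a kind and less RNA per cell cannot be told apart.

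Before rehydration the members differed widely in the size of the atg5 ratio. These ratios are on the scale of Agilent's processed signals, centred on each array's median. In Hydration they ranged from 1.00 to 6.59 with a median of 1.77, on ABA from 1.00 to 7.04 with a median of 1.65, and in Dehydration from 1.03 to 6.30 with a median of 1.63. Over all probes of the background condition the medians were 0.02, -0.01 and -0.02. Taking single treatments, 6.05% of those probes had a ratio of at least 1 in Hydration, 3.29% on ABA and 3.41% in Dehydration. Averaged over the 3 treatments, 12 members had a log2 ratio of at least 3, 53 of at least 2 and 63 of less than 1.5. The members were thus mostly 2- to 4-fold higher in atg5, with a short upper tail.

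The replicates of a treatment differed by a median of 0.22 in Hydration, 0.26 on ABA, 0.19 in Dehydration and 0.42 in Rehydration, on the log2 scale. The largest of these differences were 1.39, 1.68, 0.99 and 4.29, so single members could be far apart. Over the 6 arrays together, the SD of a member's ratio had a median of 0.31 and ran from 0.08 to 1.24. A ratio of at least 1 was reached on each of the 6 arrays by 135 members. The lowest ratio of a member on 1 array was 0.20, for Pp1s36_159V6.1 in ABA replicate 2, where replicate 1 gave 1.89.

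**Figure D1:**
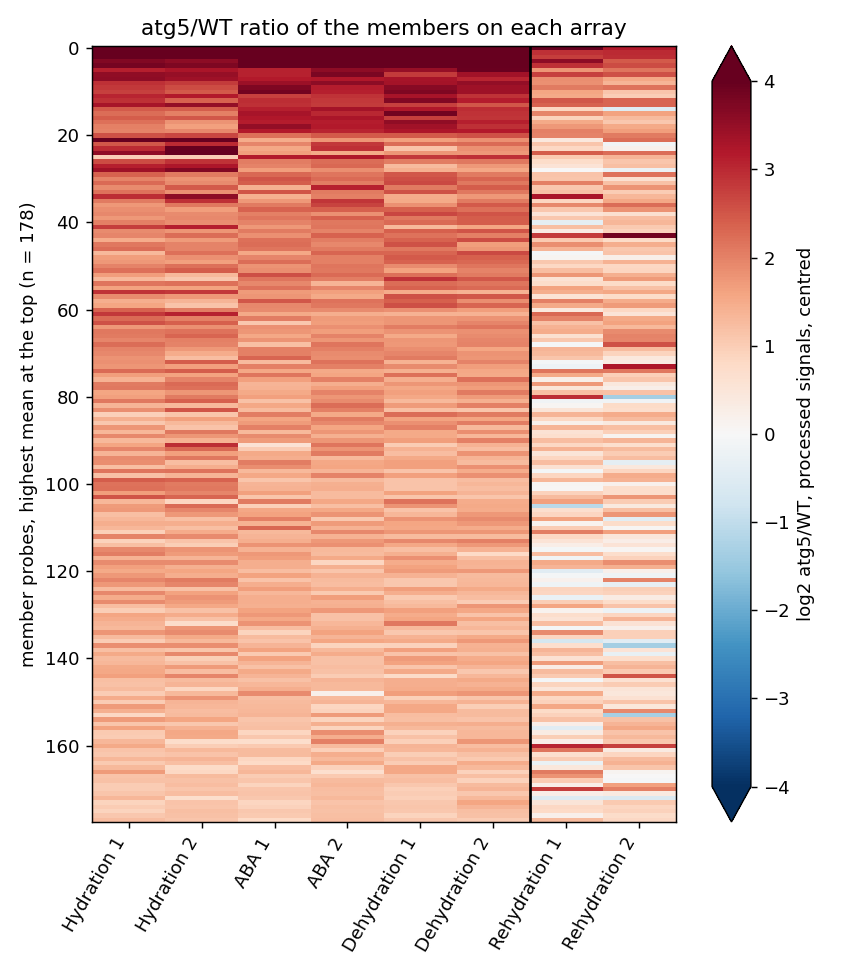
Each row is 1 of the 178 members, ordered by its mean ratio before rehydration, and each column is 1 array. Colour gives the log2 ratio of atg5 over WT from processed signals, capped at 4 in either direction. The 6 columns left of the black line chose the members, and the 2 Rehydration columns on the right are paler in most rows.

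The highest ratio belonged to Pp1s33_372V6.1. Its processed signal in WT was 406 and 408 in Hydration, 246 and 256 on ABA and 299 and 291 in Dehydration, replicate 1 first. In atg5 the same spots read 38220 and 37140, 31831 and 33568, and 23279 and 23106. The genotypes therefore did not overlap, and both replicates of each treatment gave nearly the same pair of signals. The log2 ratios were 6.58 and 6.60 in Hydration, 7.02 and 7.07 on ABA and 6.28 and 6.33 in Dehydration.

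Pp1s77_290V6.1 was next, with a mean ratio over the 3 treatments of 5.31, or 39.7-fold. WT signals were 168 and 210 in Hydration, 332 and 285 on ABA and 804 and 884 in Dehydration. In atg5 they were 8653 and 8297, 11548 and 12549, and 28244 and 28097. Signals were higher in dried than in hydrated colonies in both genotypes, and the ratio stayed between 5.01 and 5.71 on the 6 arrays.

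Pp1s80_148V6.1 had a mean ratio of 5.16, or 35.7-fold. WT read 11248 and 16342 in Hydration, 17085 and 27621 on ABA and 16056 and 5831 in Dehydration. In atg5 the signals were 632326 and 743082, 643165 and 716458, and 531582 and 131270. Dehydration replicate 2 was dimmer in both genotypes, and its spot carried an outlier mark, so it was left out of the fits below. The ratios on the 6 arrays lay between 4.51 and 5.84.

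The remaining members among the 8 highest had mean ratios that correspond to 9.7- to 19.3-fold. Pp1s136_199V6.1 had log2 ratios of 3.70 and 3.57 in Hydration, 4.52 and 4.47 on ABA and 4.71 and 4.65 in Dehydration. Its near neighbour by number, Pp1s136_203V6.1, had 3.82 and 3.73 in Hydration, 4.10 and 4.11 on ABA and 4.13 and 4.02 in Dehydration. Both were lower in Hydration than in the other treatments on every array. Pp1s336_9V6.1 had 3.11 and 3.28, 3.08 and 3.59, and 3.48 and 3.96. Pp1s197_68V6.1 had 3.54 and 3.47, 3.09 and 3.76, and 2.81 and 3.37. In these last probes the treatments overlapped. Pp1s44_137V6.1 had 3.57 and 3.38 in Hydration, 3.17 and 3.19 on ABA and 3.31 and 3.06 in Dehydration, so its Hydration arrays were the highest.

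**Figure D2:**
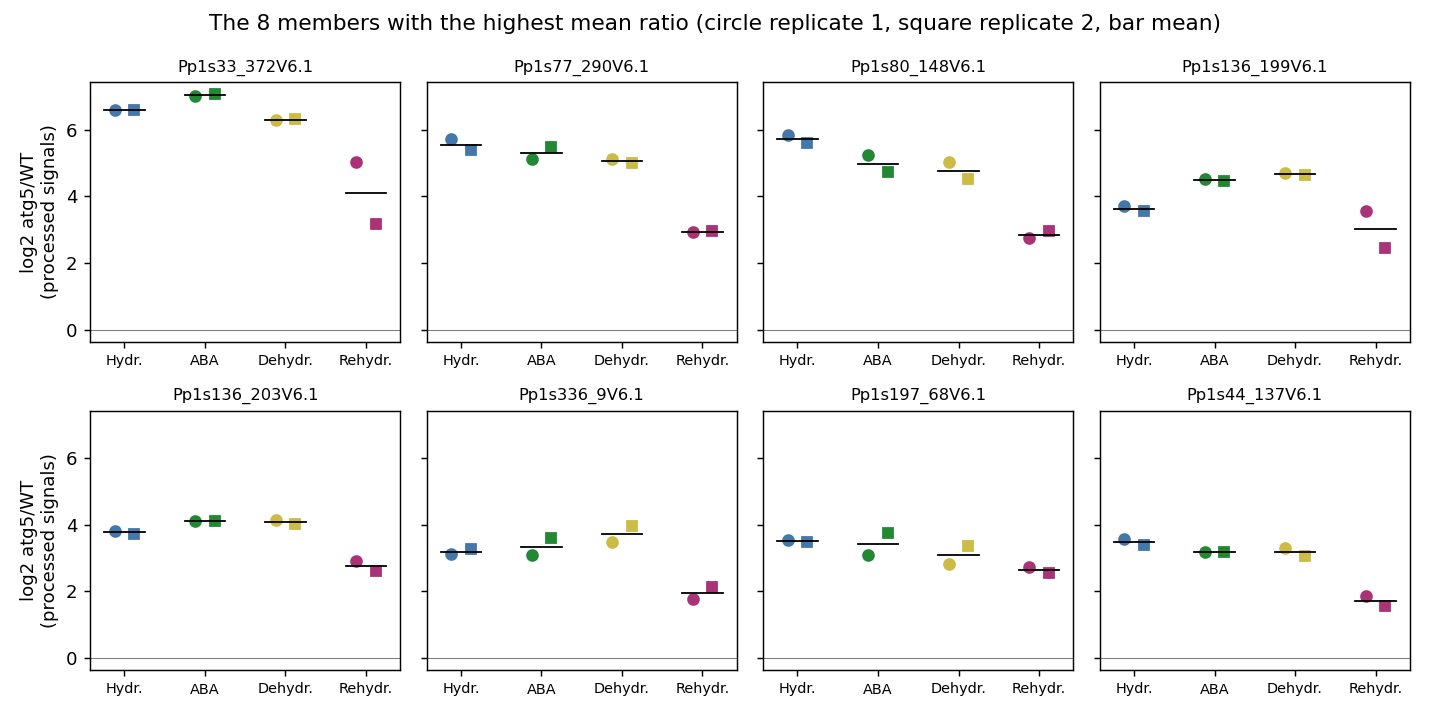
The 8 members with the highest mean ratio, 1 panel each. The vertical axis is the log2 ratio of atg5 over WT from processed signals, circles are replicate 1, squares replicate 2 and bars the mean of both. In every panel the Rehydration mean is the lowest of the 4, from 4.10 for Pp1s33_372V6.1 down to 1.70 for Pp1s44_137V6.1.

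The threshold fell within a dense part of the distribution. For 33 members the lowest of the 3 treatment ratios was less than 0.1 above the threshold, and for 43 probes outside the set it was between 0.9 and 1. Just inside were Pp1s12_128V6.1 with a lowest ratio of 1.0031, Pp1s191_16V6.2 with 1.0040 and Pp1s17_304V6.2 with 1.0068. Just outside were Pp1s110_50V6.1 with 0.9964, Pp1s93_57V6.1 with 0.9952 and Pp1s359_7V6.3 with 0.9884. Membership of such probes turned on differences smaller than the spread between replicates. Pp1s191_16V6.2, for example, had 1.69 and 0.82 in Hydration, 1.34 and 0.67 on ABA and 1.55 and 0.93 in Dehydration.

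Several loci were measured by more than 1 member. There were 26 such loci, with up to 5 members each, which held 65 of the 178 members. Probes of 1 locus can report the same transcript, so they are not independent. The 5 probes of Pp1s80_179 had mean ratios of 1.76 to 1.94 in Hydration and 2.34 to 2.60 in Dehydration. The 4 probes of Pp1s102_87 had 2.01 to 2.23 in Hydration and 2.10 to 2.37 in Dehydration. Models of each of these loci thus gave closely similar ratios.

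Probes of the same loci that were not members but met the background condition showed the same direction. The direction of those that did not meet it is not given. The 139 loci had 216 probes in all, of which 38 at 34 loci were not members, and 14 of these met the background condition. All 14 had ratios above 0 in all 3 treatments, on the same arrays that chose their loci. The share of all probes of the background condition with such ratios is not given. Their mean ratio over the treatments ran from 0.86 to 2.38 with a median of 1.18, against -0.02 over all probes of the background condition.

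The loci were spread over 108 scaffolds, with at most 3 on any scaffold. A gene number within 5 of another member locus on the same scaffold was found for 6 of the 139 loci (4.32%). The same was true of 208 of 8591 other loci with a probe of the background condition (2.42%). The 3 pairs were Pp1s23_47 with Pp1s23_50, Pp1s136_199 with Pp1s136_203, and Pp1s292_31 with Pp1s292_33. Members of the Pp1s292 pair had alike ratios of 2.11 and 1.95 in Hydration, 3.15 and 3.11 on ABA, and 3.37 and 3.21 in Dehydration. Those of the Pp1s136 pair are given above. The Pp1s23 pair was less alike in Hydration, at 1.84 and 1.12, with 1.26 and 1.35 on ABA and 1.09 for both in Dehydration.

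The treatment means of a member's ratio before rehydration spanned a median of 0.50 and from 0.01 to 2.43, with 23 members spanning 1 or more. In 15 members Hydration stood apart from both other treatments. These were picked from the ratios themselves, as members whose Hydration ratio lay at least 1 above, or at least 1 below, both other treatments, so they are a description only. The ratio was larger in Hydration in 10 probes of 8 loci, with median ratios of 3.22 in Hydration, 1.65 on ABA and 1.49 in Dehydration. Pp1s49_228V6.1, which had the largest Hydration ratio of this group, went from 4.06 in Hydration to 1.63 on ABA and 1.73 in Dehydration. Its normalized level in WT was higher than in Hydration by 2.77 on ABA and by 2.36 in Dehydration, and in atg5 by 0.92 and 0.53, on the log2 scale. Across the 10 probes the median change of the WT level on ABA was 0.66 and that of the atg5 level was -0.34.

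The opposite pattern, a larger ratio on ABA and in Dehydration, was seen in Pp1s292_31V6.1, Pp1s292_33V6.1, Pp1s259_58V6.1, Pp1s2_512V6.1 and Pp1s12_128V6.1. Their median ratios were 1.95 in Hydration, 3.15 on ABA and 3.21 in Dehydration. Pp1s12_128V6.1 lay at the threshold in Hydration, at 0.99 and 1.02, and reached 3.17 and 3.19 on ABA and 2.84 and 2.92 in Dehydration. Its normalized log2 level changed on ABA by -0.44 in WT and by 1.52 in atg5, and in Dehydration by 0.20 and 2.01. Pp1s292_33V6.1 changed on ABA by -2.15 in WT and by -1.47 in atg5. The first of these was thus higher on ABA in atg5 and not in WT, and the second was lower in both genotypes.

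The comparison of atg5 with WT in Rehydration was the one test of the atg5 difference that the choice of members allowed. Of the 178 members, all of which could be tested, 90 at 73 loci were higher in atg5 (50.6%) and none (0) was lower. Over the 19732 probes tested, 7.07% were higher and 7.4% lower. The test was limma on log2 ratios after background correction and loess, with a Benjamini-Hochberg adjusted p under 0.05 over all probes tested and n = 2 arrays. At an unadjusted p under 0.05 the count of members was 116 (65.2%), against 25.3% of all probes tested. Among probes of the background condition that were not members, 10.3% were higher and 11% lower. The members thus stood well above the background share on the higher side.

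The fitted ratios, after background correction with an offset of 50 and loess, were mostly smaller than the processed-signal ratios, with member medians of 0.44 and 1.01 in Rehydration. The fitted log2 ratios had quartiles of 0.17 and 0.72 and a range of -0.22 to 2.49, against a median of 0.01 over all probes tested. The median was 0.41 in replicate 1 and 0.48 in replicate 2, against 0.02 and -0.01 over all kept probes. The ratio was above 0 in 158 members in replicate 1 and in 155 in replicate 2. All 90 called members had a ratio above 0 on both arrays, which are the arrays that gave the calls. Called members ranged from 0.34 to 2.49 with a median of 0.72. At least 2-fold higher were 23 of them, or 12.9% of the members, against 0.613% of all probes tested.

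Without Rehydration replicate 2 the median fitted ratio of the members was 0.41, against 0.02 over all probes tested. Without replicate 1 it was 0.48, against -0.01. Fewer members, and fewer of all probes, were called in either case. With median centring in place of loess the count was 0 of 178 members and also 0 of all probes tested, with 23 members at an unadjusted p under 0.05 (12.9%, against 0.907% of all probes tested). The median ratio of the members was larger in that fit, 0.74 against 0.08 over all probes, and Pp1s77_290V6.1 had 3.16 ± 0.596 (SE).

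The largest differences in Rehydration were found in probes that also led before it. The SE given with each estimate rests on the residuals of all treatments, not on the Rehydration arrays alone. Pp1s80_148V6.1 had fitted log2 ratios of 2.08 and 2.89, and its estimate of 2.49 ± 0.161 (SE, n = 2, limma adjusted p = 1.94e-05) corresponds to 5.60-fold. Its signals differed greatly between the replicates, at 1320 and 45717 in WT and 8683 and 354816 in atg5, while the genotypes differed by a similar ratio on each array. Pp1s77_290V6.1 had fitted ratios of 2.37 and 2.59, from signals of 2235 and 2088 in WT and 16503 and 16383 in atg5. Its estimate was 2.48 ± 0.128 (limma adjusted p = 4.57e-06), or 5.57-fold. For both probes the 2 arrays lay well above 0.

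Pp1s33_372V6.1 had signals of 318 and 216 in WT and 10220 and 1939 in atg5 in Rehydration. The WT spot was well above background on 1 of the 2 arrays. The fitted ratio was 2.87 in replicate 1 and 1.49 in replicate 2. The estimate of 2.18 ± 0.252 (limma adjusted p = 0.000245) corresponds to 4.54-fold. Its SE rests on the residuals of all treatments, so neither the SE nor the adjusted p describes the spread between the 2 Rehydration arrays. Pp1s12_205V6.1, of moderate size before rehydration with a mean ratio of 2.15, was 3.19-fold higher in atg5. Its fitted ratios were 1.48 and 1.87 (estimate 1.68 ± 0.161, limma adjusted p = 8.81e-05).

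Of the other members among the 8 highest before rehydration, all were called higher in Rehydration. The estimates were 1.65 ± 0.2 for Pp1s197_68V6.1, 1.23 ± 0.108 for Pp1s136_199V6.1, 1.08 ± 0.144 for Pp1s336_9V6.1 and 0.86 ± 0.123 for Pp1s44_137V6.1. Pp1s136_203V6.1 was not well above background in WT on either array, with signals of 58.5 and 134 against 433 and 818 in atg5. Its fitted ratio corresponds to 1.53-fold higher in atg5, an estimate and not a lower bound (limma adjusted p = 0.00567). Among the 12 members with a mean ratio of at least 3, 11 were called, and the exception was Pp1s12_357V6.1 with an estimate of 0.34 ± 0.162 (limma adjusted p = 0.226).

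The smallest called differences were in Pp1s41_166V6.1, Pp1s33_172V6.1, Pp1s72_86V6.1 and Pp1s28_131V6.2. Pp1s28_131V6.2 was 1.36-fold higher, with fitted ratios of 0.46 and 0.43 (limma adjusted p = 0.00712). Pp1s33_172V6.1 was 1.34-fold higher, with 0.42 on both arrays (limma adjusted p = 0.0139). These differences were small but close to equal in the replicates. Pp1s72_86V6.1 was not well above background in WT, and its fitted ratio corresponds to 1.33-fold higher in atg5 (limma adjusted p = 0.0142). Pp1s41_166V6.1 was not well above background in either genotype, so no fold is given for it (limma adjusted p = 0.0349).

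**Figure D3:**
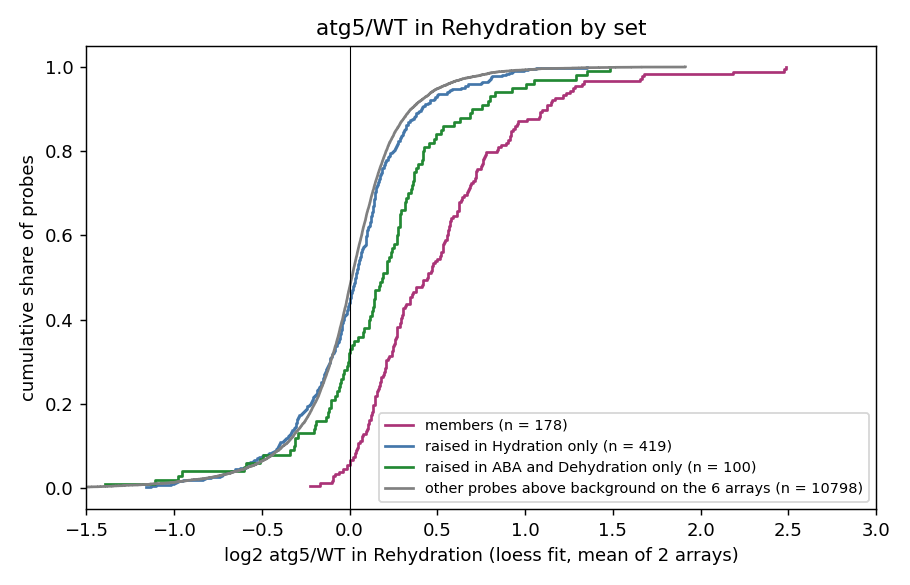
Cumulative share of probes against the fitted log2 ratio of atg5 over WT in Rehydration, the mean of 2 arrays, for the members, for probes raised in Hydration only, for probes raised on ABA and in Dehydration but not in Hydration, and for the other probes of the background condition. The axis starts at -1.5 and leaves out a few lower values. The members' curve lies to the right of the others, with medians of 0.44, 0.03, 0.19 and 0.01 in that order.

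The same values in probes raised in some of the treatments before rehydration are given for comparison. Of 419 probes with a ratio of at least 1 in Hydration only, 11.9% were called higher in Rehydration and 10.7% lower, with a median fitted ratio of 0.03. Of 100 probes with such ratios on ABA and in Dehydration but not in Hydration, 25% were called higher and 9% lower, with a median of 0.19. The difference between these sets and the members was not tested.

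On the scale of processed signals, the median ratio of the members in Rehydration was 1.01, against 0.06 over the probes of the background condition. It was at least 1 in 89 members (11.3% of the background-condition probes), and above 0 on both arrays in 147 members (37.4%). The Rehydration ratio lay below each of the other 3 treatment means in 149 members. In 93 members both Rehydration arrays lay below all 6 others. These counts compare arrays that chose the members with arrays that did not, so no test is given. The counts of 149 and 93 have no share over other probes beside them, so they do not set the members apart.

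Both Rehydration arrays lay above all 6 others in 3 probes, singled out after their values were seen and without a share over other probes. Pp1s41_233V6.1 had ratios of 2.79 and 3.86 in Rehydration against 1.82 to 2.35 before. Pp1s170_75V6.4 had 3.05 and 2.73 against 0.99 to 1.51. Pp1s170_75V6.1 had 2.77 and 2.01 against 0.95 to 1.36. None of the 3 was well above background in WT on a Rehydration array, where WT signals were 43.1 to 186, and all were called higher in atg5. Their fitted ratios correspond to 1.48-fold, 1.57-fold and 1.39-fold higher, in the order named (limma adjusted p = 0.00761, 0.00233 and 0.00495).

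A larger ratio before rehydration went with a larger one after it. In the upper 89 members by mean ratio, 55 were called higher in Rehydration and the median processed-signal ratio there was 1.28. In the lower 89, 35 were called and the median was 0.81. Over all probes tested 7.07% were called higher, and over other probes of the background condition 10.3%. The level and detection of these groups of members are not given. The split uses the arrays that chose the members and is a description.

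**Figure D4:**
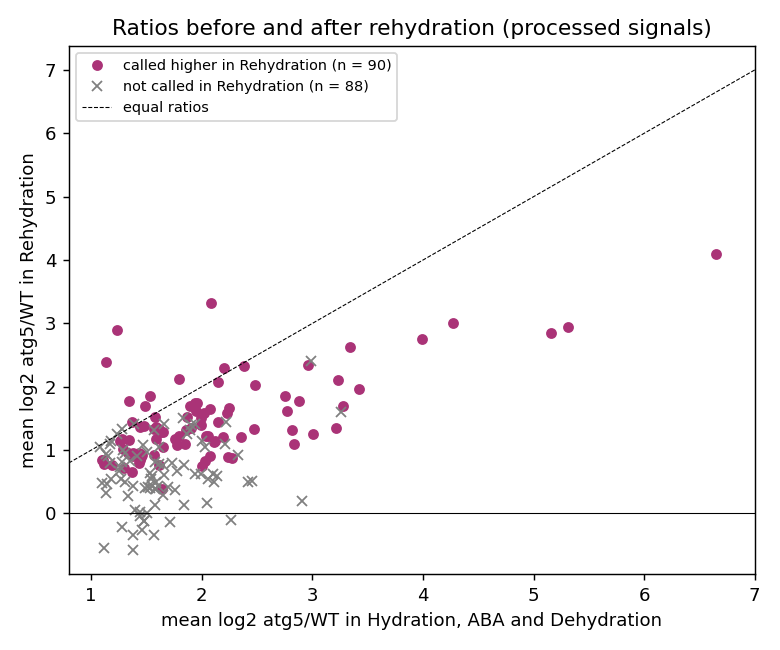
Each point is 1 member, with its mean log2 ratio of atg5 over WT before rehydration on the horizontal axis and its mean ratio in Rehydration on the vertical axis, both from processed signals. Filled circles are the 90 members called higher in Rehydration, crosses the 88 not called, and the broken line marks equal ratios. Most points lie below that line.

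Of the 88 members not called, the fitted ratio ran from -0.22 to 0.56 with a median of 0.17. A ratio of 2-fold or more was therefore not estimated for any of them, on this scale. Over all alternatives, several of the 88 had a highest estimate above 1, so the statement holds for the main fit only. Estimates ran from 0.26 to 2.39 for Pp1s6_306V6.1 and from -0.01 to 1.58 for Pp1s12_357V6.1. They ran from 0.02 to 1.49 for Pp1s411_25V6.2 and from 0.43 to 1.42 for Pp1s86_61V6.2. Others of the 88 stayed lower, such as Pp1s3_387V6.1 with -0.17 to 0.15. All 5 probes of Pp1s80_179 were among the 88, with mean processed-signal ratios of 0.49 to 0.63 in Rehydration. All 4 probes of Pp1s22_210 were among them too, with 0.13 to 0.64, although their Hydration ratios had been 1.94 to 2.19. In contrast, all 3 probes of Pp1s23_306 were called, with 1.23 to 1.44, and all 3 of Pp1s77_105, with 1.10 to 1.31. With the replicate number as a block, Pp1s22_210V6.1 (adjusted p = 0.0134) and Pp1s22_210V6.2 (adjusted p = 0.0409) were called higher by limma. That fit called 21 of the 88 members, 20 higher and 1 lower, and lost none (0) of the 90. The highest adjusted p over all alternatives was 1 for each of the 178 members, with median centring.

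Detection in Rehydration moved with these results. In atg5 142 members (79.8%) were well above background on both Rehydration arrays, against 63.8% of all probes of the background condition. In WT it was 104 members (58.4%), against 54%. In 11 members atg5 was above background on both arrays and WT on neither, and 5 of these were called higher, while the reverse was found in 0 members. The 5 were Pp1s136_203V6.1, Pp1s72_86V6.1, Pp1s41_233V6.1, Pp1s170_75V6.4 and Pp1s170_75V6.1. In 15 members no Rehydration channel was above background. For the counts of 11, 0 and 15 no share over all probes of the background condition is given. Among the 104 members above background in all 4 Rehydration channels 71 were called higher, against 910 of the 5475 probes (16.6%) that met this condition. The part of the lower signal in the size of the Rehydration ratios was not tested.

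The level of the members in Rehydration relative to dried colonies depended on the scaling between arrays and is a description only. With quantile scaling of the mean levels, the median change from Dehydration to Rehydration was 0.65 in WT and -0.43 in atg5, against -0.05 and -0.06 over other probes of the background condition. With median scaling it was 0.05 and -1.02, against -0.44 and -0.49. With scaling to the spike-in controls it was -1.51 and -2.58, against -2.00 and -2.05. The Dehydration values took part in choosing the members, for low WT and high atg5 signal, so the opposite direction of WT and atg5 relative to other probes can come from that choice.

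The effect of abscisic acid on the members was measured on the mean level of both genotypes, which is not the ratio that chose them. On ABA 46 members at 36 loci (25.8%) were lower than in Hydration and 10 (5.62%) were higher, against 11.9% lower and 9.35% higher over the 19696 probes tested (limma, adjusted p under 0.05, n = 2 arrays per treatment). Among other probes of the background condition 13.9% were lower and 10.3% higher. The median log2 change of the members was -0.15, against -0.04 over all probes tested. It was -0.12 between the arrays of replicate 1 and -0.23 between those of replicate 2. At least 2-fold changes were called for 24 members on the lower side (13.5%, against 3.84% of all probes tested) and for 2, Pp1s291_30V6.1 and Pp1s52_31V6.1, on the higher side (1.12%, against 4.15%). Without Hydration replicate 1 fewer than these 56 members, and fewer of all probes, were called. The median change of the members was then -0.12, against -0.04 over all probes tested.

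The largest fall on ABA was that of Pp1s442_25V6.1. Its mean log2 level was 12.01 and 12.03 in Hydration and 8.36 and 8.12 on ABA, a difference of -3.78 ± 0.107 (SE), or 13.8-fold lower (limma adjusted p = 3.83e-05). WT and atg5 fell by similar amounts, with changes of -3.94 and -3.63. Pp1s77_105V6.3 was 10.8-fold lower, with levels of 12.06 and 12.15 in Hydration and 8.92 and 8.43 on ABA (-3.43 ± 0.179, limma adjusted p = 0.000207). The other 2 probes of this locus gave -3.09 and -3.13. Pp1s97_287V6.1 was 3.92-fold lower, from 10.17 and 10.16 to 8.31 and 8.08 (limma adjusted p = 0.000346). In each of these probes the treatments were far apart compared with the replicates, while atg5 stayed above WT on all 4 arrays.

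The highest called rise on ABA was that of Pp1s291_30V6.1, from 8.45 and 8.20 in Hydration to 9.70 and 9.63 on ABA (1.34 ± 0.118, or 2.53-fold, limma adjusted p = 0.00127). This probe belongs to the group with a larger ratio in Hydration, and its level changed by 2.09 in WT and by 0.59 in atg5. Pp1s52_31V6.1 was 2.15-fold higher, from 7.11 and 6.90 to 8.23 and 7.99 (limma adjusted p = 0.00417). Pp1s169_140V6.1 was 1.99-fold higher, from 9.36 and 9.35 to 10.37 and 10.32 (limma adjusted p = 0.00626). The levels on ABA lay above those in Hydration on both arrays of each of these probes.

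In dried colonies, too, more members were called lower than higher, in a comparison that shares its Hydration arrays with the one above. Of the 178 members, 50 at 37 loci (28.1%) were lower in Dehydration than in Hydration and 13 (7.3%) were higher, against 13.6% lower and 11.6% higher over the 19675 probes tested by limma. Among other probes of the background condition 16.4% were lower and 13% higher. The median log2 change was -0.19, against -0.02 over all probes tested, and it was -0.18 and -0.23 within replicates 1 and 2. At least 2-fold changes were called for 25 members on the lower side (14%, against 4.75% of all probes tested) and 5 on the higher side (2.81%, against 4.57%). Fewer than these 63 members, and fewer of all probes, were called without Hydration replicate 1, Hydration replicate 2 or Dehydration replicate 2. The median change of the members was then -0.15, -0.19 and -0.12, against -0.02, -0.03 and -0.01 over all probes tested.

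The balance of higher and lower calls in Dehydration depended on the scaling between arrays. With spike-in scaling 32 members were higher and 19 lower, or 18 and 10.7% of the members, against 13.5 and 3.29% of all probes tested. The median of all probes itself shifted to 0.32, with 0.27 for the members. With median scaling 30 were higher and 45 lower, or 16.9 and 25.3%, against 18 and 19.5% of all probes. For ABA, spike-in scaling gave 2 higher and 34 lower, or 1.12 and 19.1% against 3.66 and 7.32% of all probes, with medians of -0.38 for the members and -0.21 for all probes.

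Pp1s442_25V6.1 and Pp1s77_105V6.3 again had the largest falls. The first went from 12.01 and 12.03 to 7.93 and 7.82 (-4.15 ± 0.107, 17.7-fold, limma adjusted p = 2.58e-05). The second went from 12.06 and 12.15 to 8.39 and 8.25 (-3.78 ± 0.179, 13.8-fold, limma adjusted p = 0.00013). Their levels in dried colonies lay below those on ABA on each array, a difference that was not tested. Pp1s44_300V6.2, a dimmer probe of its locus, was 6.35-fold lower (limma adjusted p = 0.0373). Its estimates ran from -3.39 to -2.05 over all alternatives, and the call was not kept in all of them. Pp1s44_300V6.1 of the same locus gave smaller falls, from -2.43 to -1.40, and kept its call. Pp1s322_40V6.1 was 5.81-fold lower, from 10.74 and 10.68 to 8.26 and 8.08, but with an SE of 0.654 on its estimate of -2.54 (limma adjusted p = 0.0407). This SE takes in its Rehydration arrays, which read 6.53 and 8.68. Without the Rehydration arrays the estimate was -2.73 ± 0.114 (adjusted p = 0.000422). The call was lost under 7 alternatives, with estimates of -2.41 to -3.04 and adjusted p values up to 0.14.

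The largest called rise in Dehydration was that of Pp1s67_30V6.4, at 2.56-fold (limma adjusted p = 0.00892). It was followed by Pp1s77_290V6.1, one of the members with the highest atg5 ratio, whose level went from 8.35 and 8.16 in Hydration to 9.66 and 9.48 (1.32 ± 0.187, 2.49-fold, limma adjusted p = 0.00558). WT rose by 1.22 and atg5 by 1.41. Pp1s291_30V6.1 was 2.40-fold higher (limma adjusted p = 0.00137), with 9.56 and 9.62 in Dehydration. Pp1s18_223V6.1 was 2.25-fold higher, from 8.72 and 8.78 to 9.93 and 9.91 (limma adjusted p = 0.00112). Pp1s12_128V6.1, at 2.16-fold, completes the 5 members called at least 2-fold higher.

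**Figure D5:**
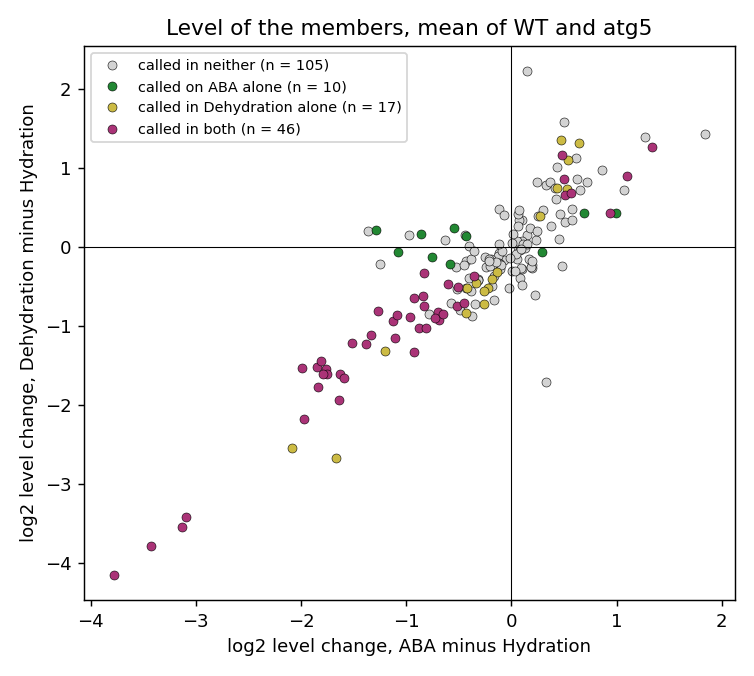
Each point is 1 member, with the log2 change of its mean level over WT and atg5 on ABA on the horizontal axis and in Dehydration on the vertical axis, both against the same Hydration arrays. Colours give the comparisons in which the change was called. Points in the lower left corner are Pp1s442_25V6.1 and the 3 probes of Pp1s77_105.

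In both treatments 39 members (21.9%) were called lower and 7 (3.93%) higher, against 9.62 and 7.53% of all probes tested in both and 11.2 and 8.18% of other probes of the background condition. Of the members, 0 were called in opposite directions and 105 were called in neither. Each comparison uses the same Hydration arrays, so the shared direction is not independent. All 46 members called lower on ABA had a negative change in both replicates, as had all 49 of those called lower in Dehydration and measured in both. These are the arrays that gave the calls, so the shared sign adds no separate support.

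Members with large level changes before rehydration differed from each other in it. Pp1s442_25V6.1 had signals of 1833 and 2234 in WT and 1958 and 1935 in atg5 in Rehydration, so the genotypes overlapped. Its fitted ratio there was -0.10 ± 0.09 (limma adjusted p = 0.616). Pp1s77_105V6.3 was still 1.69-fold higher in atg5 (limma adjusted p = 0.00233), with signals of 1407 and 1756 in WT and 3401 and 3285 in atg5. Pp1s18_223V6.1, with signals of 4256 and 5551 in WT and 3432 and 7003 in atg5, gave a fitted ratio of 0.00 with an SE of 0.109. Pp1s169_140V6.1 read 3716 and 2307 in WT and 2668 and 2676 in atg5, with a fitted ratio of -0.08 ± 0.104 (limma adjusted p = 0.742).

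Across the 8 arrays, the median fitted ratio of the members was 1.43 and 1.29 in Hydration, 1.18 and 1.22 on ABA, 1.36 and 1.36 in Dehydration and 0.41 and 0.48 in Rehydration. The probes outside the set whose ratios followed this course most closely were Pp1s36_227V6.1, Pp1s108_80V6.1 and Pp1s34_74V6.1, with Pearson correlations of 0.9900, 0.9895 and 0.9864 over the 8 arrays. These arrays share 2 slides, and the probes were picked as the highest of all, so the values are a description. Pp1s36_227V6.1 was moderately higher in atg5 before rehydration, with mean fitted ratios of 0.55, 0.43 and 0.61, and had -0.12 in Rehydration. Pp1s108_80V6.1 differed little between genotypes before rehydration, at 0.09, -0.02 and 0.10, and was at -0.98 in Rehydration. Likeness of course thus did not mean a like level of the ratio.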

How the data were processed

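The deposited scanner files hold spot intensity values on a linear scale. Agilent Feature Extraction is given as 9.5.3.1 per the file headers and as 9.1 per the submitters' processing notes. The labels give 200 ng of RNA per labelling with an RNA integrity number above 8, and the series' design text gives 400 ng. Members were chosen on processed signals, which the authors deposited background-subtracted and dye-normalized. The members, gene lists and tests were chosen with earlier results of these data known.

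For the fits, median pixel signals were corrected with normexp (offset 50) and normalized by loess within each array, with control spots at weight 0 and later left out, as were spots with an outlier mark. Spots of a probe were averaged, and 19739 probes were kept that stood well above background in both replicates of 1 or more of the genotype and treatment groups. All 178 members passed. Levels were the mean of both channels after quantile normalization of average intensities between arrays. Ratios and levels on the log2 scale were fitted with limma 3.58.1 in R 4.3.3 (lmFit and eBayes), with 1 coefficient per treatment over all 8 arrays, and p-values were adjusted by Benjamini-Hochberg. The code was tested on simulated data. The number of arrays limits the precision, and the replicates' separate origin rests on the labels.

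The replicate number coincides with slide, scan and dye orientation. Deviations of same-numbered arrays correlated at 0.272 to 0.537 for ratios, so the numbers pair the arrays there, and at 0.0256 to 0.0734 for levels, where they do not.

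Named probes, the brightest standing for a locus, are the 8 highest by mean ratio, 3 on either side of the threshold, 4 highest and 4 lowest of those called in Rehydration, 3 highest and 3 lowest called level changes per treatment, and 3 of most similar course. Lists by gene function, probe sequences and the deposited normalized table were not used here.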

Additional observations from a re-analysis of the deposited data

Results flagged for a closer look

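In 5 members the processed-signal ratio of atg5 over WT was below 0 on both Rehydration arrays after being above 0 on all 6 arrays before. On this scale the direction thus differed between treatments. This difference was not tested. For the count of 5 no share over the probes of the background condition is given, so it does not set the members apart. Pp1s109_123V6.1 had a mean ratio of -0.58 in Rehydration, with -0.69 and -0.46 on the 2 arrays, against 1.00 to 1.74 before. Its fitted ratio was -0.22 ± 0.104 (limma adjusted p = 0.213). In limma with the replicate block its adjusted p was 0.0432, which makes it the one member called lower in atg5 in that fit. Over all alternatives its adjusted p ran from 0.0432 to 1, the latter with median centring, as for all 178 members. Pp1s9_199V6.1 had a mean ratio of -0.55, with WT well above background on 1 Rehydration array and atg5 on none. The other probes were Pp1s9_480V6.1 at -0.26, Pp1s9_480V6.2 at -0.14 and Pp1s318_10V6.1 at -0.12, none of them called with limma in Rehydration with or without the block. Their fitted ratios were -0.04, -0.01 and -0.17 in that order, so a lower level in atg5 was not borne out for the Pp1s9_480 probes. Pp1s9_480V6.1 and Pp1s9_480V6.2 share a locus, whose remaining member Pp1s9_480V6.3 had a processed-signal ratio of 0.01.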

How the results depend on the processing

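The number of members, 178, became 71 with a ratio of at least 1.5 in each treatment and 101 with normexp and loess ratios. Leaving out 1 replicate gave 178 to 194 members, of which 152 and 158 were shared with the 178. The set therefore changes by more than its count. In Rehydration the count of 90 became 111 with the replicate number as a block (110 higher and 1 lower), 103 with processed signals (82 of them among the 90), 0 with median centring (median ratio 0.74, against 0.44), 23 with a 2-fold minimum, and 52 to 71 without 1 of the replicates. The shares of all probes tested moved in the same direction. With the block 11% of them were called higher and 11.2% lower, against 7.07 and 7.4% in the main fit. With processed signals it was 10.6 and 9.68%, and with a 2-fold minimum 0.613 and 0.917%. Of the members, 61.8% were higher with the block and 57.9% with processed signals, against 50.6%. Without 1 of the replicates fewer of all probes were called too. For levels the replicate numbers do not pair the arrays. The block gave 63 members on ABA (16 higher, 47 lower) and 65 in Dehydration (17 higher, 48 lower). On ABA these were 8.99% higher and 26.4% lower, against 9.39 and 12.1% of all probes tested. In Dehydration they were 9.55 and 27%, against 11.7 and 13.5%. On ABA the count of 56 became 26 with a 2-fold minimum, 36 with spike-in scaling (94.4% of them lower, against 82.1%) and 37 to 41 without 1 replicate. In Dehydration the count of 63 became 30 with a 2-fold minimum, 41 of 104 tested where all channels had to be above background, and 35 to 42 without 1 replicate. With spike-in scaling it was 51, of which 37.3% were lower, and with median scaling 75, of which 60% were lower, against 79.4%. The cause of these shifts was not tested. For the probes named for Rehydration, 63 alternatives kept the call and 22 lost it. For those named for ABA it was 86 and 2, and for Dehydration 81 and 7. None (0) reversed a direction.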
